A study of Danio rerio with 17 samples.

Results

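Glycolysis splits glucose into pyruvate in a chain of enzyme steps, and lactate dehydrogenase can turn that pyruvate into lactate for export. The genes described here are the enzymes of that chain, the carriers that bring glucose in and take lactate out, the kinases that hold back pyruvate dehydrogenase, and 3 genes of the hypoxia response. A list of 49 zebrafish symbols was matched to the gene IDs of a count table by symbol, with capitals ignored and, for 28 of them, the final paralogue letter dropped. Of these, 48 matched and gave 51 of the 31701 IDs in the table. The symbol pgk1 found no ID, so the phosphoglycerate kinase step is not analysed here. Among the 51 IDs, 28 share a symbol with another ID. The duplicated genome of bony fish often holds an a and a b copy of a gene. Which ID is the a copy was not resolved, so such IDs are written as the symbol and the last 5 digits of the Ensembl ID, as in ENO1-13750 for ENO1 (ENSDARG00000013750).

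Vertebrate isozymes of one step differ in tissue and in kinetics. The lactate dehydrogenase A subunit is classically tied to making lactate and the B subunit to using it. Photoreceptors are among the cells best known for turning glucose into lactate while oxygen is present, and tumours and activated immune cells are known for the same. Hypoxia-inducible factor raises many genes of the chain when oxygen is short, and it also raises the pyruvate dehydrogenase kinases that keep pyruvate out of the mitochondrion.

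The series profiled polyA RNA from zebrafish eye tissue that was dissociated with enzymes and sorted on a red fluorescent protein driven by the promoter of sox10, a neural crest gene. All fish carried the reporter tg(sox10:RFP). Control_Low is the RFP-negative fraction of fish with the reporter and no brca2 mutation, aged 4.6, 5.0 and 5.0 months (n = 3). PreC_Low and PreC_High are the RFP-negative and RFP-positive fractions of pre-cancerous eyes from brca2 hg5/hg5 homozygous fish, aged 4.5, 4.5 and 4.7 months (n = 3 each). Cancer_Low and Cancer_High are the same fractions from eyes with cancer in brca2 hg5/hg5 fish, aged 7.5, 8.1, 8.1 and 10.4 months (n = 4 each). The submitters call the Low fractions microenvironment and the High fractions cells. A sort on RFP separates cells by the activity of the sox10 promoter and not by cell type. Tissue codes differ between the replicates of a group, and so do some of the ages, but no label names the animal of each replicate. In the column names the codes begin with OT in the Cancer groups and with ONP in all others. The column names do not say what these letters stand for, so the dissected tissue may differ too. A p-value here measures the spread between these samples, part of which may be technical.

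Totals ran from 58711787 to 87244522 counts per library, and 20041 to 24179 IDs had a count. Levels are given as CPM, counts scaled to a common library total. A count of 0 allows a level of up to 3 counts, a floor of 0.0331 to 0.0547 CPM over the 17 libraries that covers counting error only. SOX10 itself, the gene whose promoter was sorted on, read 1329 to 1597 CPM in PreC_High and 748 to 1389 CPM in Cancer_High, against 9.76 to 23.8 CPM in PreC_Low and 11.1 to 13.4 CPM in Control_Low. Cancer_Low 4 stood apart with 418 CPM of SOX10, where the other Cancer_Low libraries read 16.04 to 69.1 CPM. PreC_Low 3 stood apart in several members, above all ENO1-22456. The count columns of the Cancer libraries are numbered 10 to 17 and those of all others 1 to 9. The column names do not say what these numbers mark. Counts of 20 to 100 were even in 51.2% to 53.9% of cases in the Cancer libraries and 60.8% to 77.8% in the others. Cancer stage, the older age of the fish, the tissue code letters, the column numbers and that difference in even counts cannot be told apart. Between Cancer_Low and Control_Low the brca2 genotype differs as well. PreC and Control libraries share the code letters and the numbers 1 to 9.

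The CPM were scaled by TMM factors and allow one gene to be compared between groups but not one gene with another, since transcript lengths were not used. Fold changes are log2 values with their standard error from edgeR's quasi-likelihood test, with Benjamini-Hochberg adjustment over all 23299 IDs tested, and a call has an adjusted p under 0.05. A filter on low counts kept 49 of the 51 members. Muscle-type PGAM2 and ENO3 did not pass it. In bulk RNA, fewer cells of a type and less RNA per cell cannot be told apart.

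The chain did not move as one block. In Cancer_Low against Control_Low, 14 members rose and 13 fell of 49 tested, or 55.1% called, against 32.8% of all IDs (17.2% higher and 15.5% lower). The members' median was 0.29 log2 units and that of all IDs 0.16. One copy of a step often rose while another fell: LDHA rose and ldhbb fell, ENO1-22456 rose and ENO1-13750 and eno2 fell, PFKP-28000 rose and PFKP-12801 fell. Led by the smallest adjusted p, LDHA, GAPDHS, PFKP-28000, GPI-12987, pgam1a, EGLN3, ALDOA-11665, PKM-99730, HK1 and ENO1-22456 rose, and ldhbb, SLC2A1-01437, PDK3-99791, eno2, PFKL-99755, pfkfb1, ENO1-13750, TPI1-25012, PFKM-60797 and PDK2-20876 fell. Of the 27 calls, 19 held when any 1 library was left out. The others are named under each enzyme.

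Cancer_Low against PreC_Low gave 11 higher and 14 lower members, or 51.02% called against 19.1% of all IDs, with a median of 0.07 log2 units against 0.05. Of all IDs, 7.95% rose and 11.1% fell. All 11 of the higher members and 12 of the lower ones were called the same way against Control_Low, although these comparisons share the Cancer_Low libraries. The share of all IDs called alike in both is not given here. Of the 25 calls, 19 held without any 1 library. PreC_Low against Control_Low gave 1 member, SLC16A1-16963, or 2.04% against 1.07% of all IDs (0.777% higher). The median there was 0.04 log2 units, against 0.09 over all IDs.

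**Figure D1:**
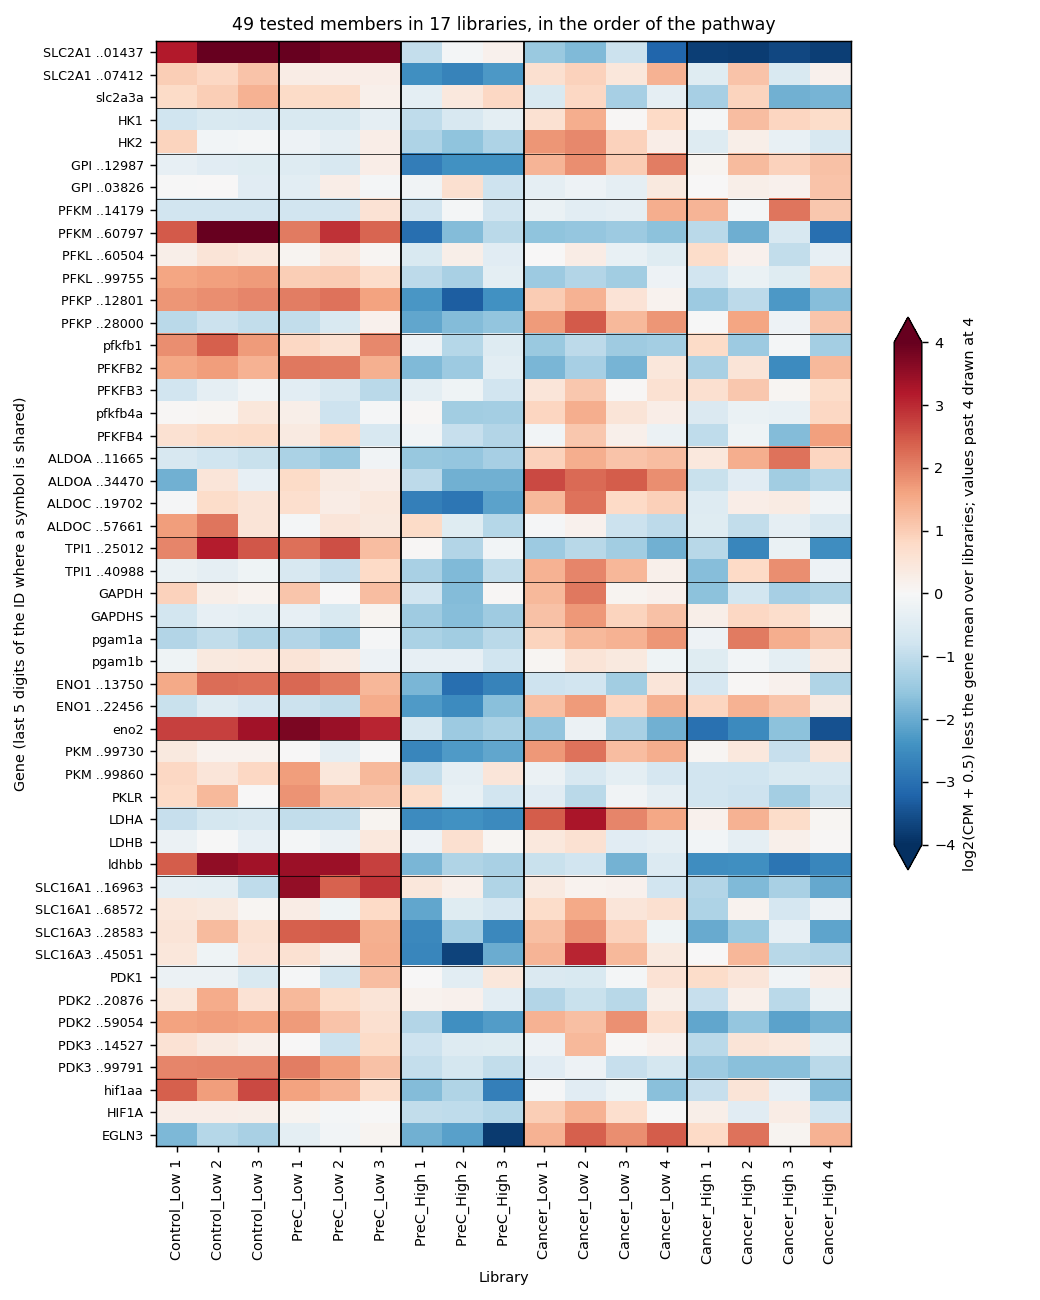
Level of the 49 tested members (rows, in the order of the pathway) in the 17 libraries (columns, by group), as log2 CPM less the gene's mean over the libraries, with colours clipped at 4 in both directions. PreC_High holds the lowest group mean of 28 members, and Cancer_Low holds the highest group mean of 19.

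The sorted fractions differed in one direction. In PreC_High against PreC_Low, 28 members fell and 0 rose, or 57.1% lower against 22.0% of all IDs (31.3% called either way), with a median of -2.01 log2 units against -0.16. In Cancer_High against Cancer_Low, 19 fell and 0 rose, or 38.8% lower against 17.9% of all IDs (28.4% called either way), with a median of -0.66 log2 units against 0.07. For rises, 9.28% of all IDs were called in the first comparison and 10.5% in the second. At an unadjusted p under 0.05 in edgeR, 0 members were higher in PreC_High and 2 in Cancer_High, and DESeq2 called 0 and 1 higher. Of these calls, 21 of 28 and 10 of 19 held without any 1 library, and 17 members fell at both stages. How many of all IDs fell at both is not given here. PFKP-12801, ldhbb, ENO1-13750, ALDOC-19702 and PDK2-59054 led the fall in PreC_High, and PDK2-59054, SLC2A1-01437, PFKP-12801, ldhbb and PKM-99730 led it in Cancer_High.

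Within the RFP-positive fraction, Cancer_High against PreC_High gave 15 higher and 3 lower members. That is 30.6% higher and 6.12% lower, against 4.91% and 5.24% of all IDs (10.1% called either way), with a median of 0.93 log2 units against 0.21. GPI-12987, GAPDHS, PKM-99730, LDHA, ALDOC-19702, ALDOA-11665, SLC2A1-07412, EGLN3, PFKP-28000 and ENO1-22456 led the rise, and SLC2A1-01437, ldhbb and SLC16A1-16963 fell. Of the 18 calls, 14 held without any 1 library. Against PreC, 10 members rose in Cancer in both fractions and 3 fell in both, and the matching shares of all IDs are not given here. Both comparisons of Cancer with PreC also differ in the column numbers and tissue code letters named above. Without PreC_Low 3 and Cancer_Low 4 together, Cancer_Low against Control_Low gave 28 members (26 of them among the 27), Cancer_Low against PreC_Low 26, PreC_High against PreC_Low 26, and Cancer_High against Cancer_Low 19 lower and 2 higher ones.

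**Figure D2:**
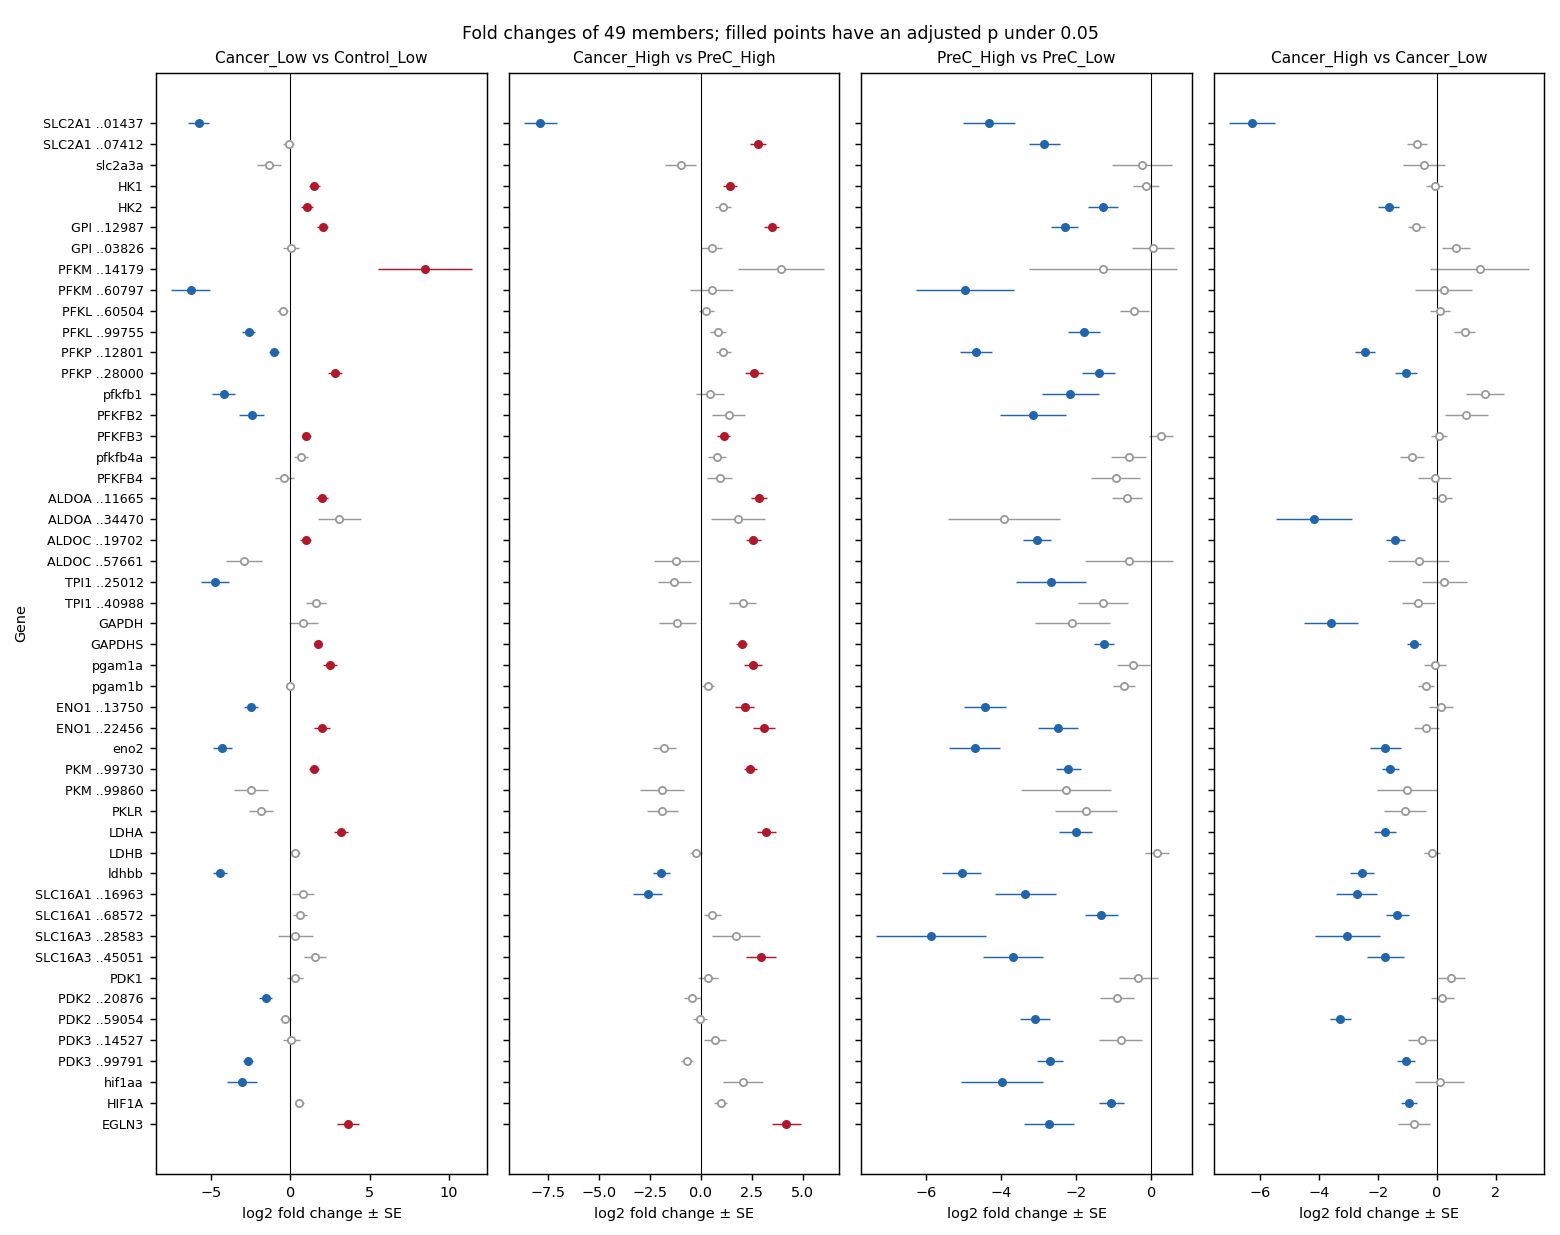
Log2 fold change with its standard error for the 49 tested members (rows, pathway order) in 4 comparisons, 1 panel each, with filled points where the adjusted p is under 0.05. The panel of Cancer_Low against Control_Low, which differ in brca2 genotype as well as in stage, holds 14 filled points to the right and 13 to the left. Both High against Low panels hold filled points only to the left. The value of PFKM-14179 is a fitted one that depends on the prior count, since its Control_Low libraries were all at 0.

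Markers of cell types also differed between these groups, some in the direction of the members' sum and some against it. The summed level of 21 photoreceptor markers was 17403 to 42187 CPM in Control_Low, 28797 to 60545 in PreC_Low, 1129 to 1381 in PreC_High, 347 to 682 in Cancer_Low and 28.3 to 46.5 in Cancer_High. All 19 tested photoreceptor markers fell in Cancer_Low against Control_Low, and PDE6C and PDE6H were at 0 in every group. The summed level of 16 macrophage markers was 869 to 1375 CPM in Control_Low, 1252 to 2711 in PreC_Low, 171 to 263 in PreC_High, 2475 to 9552 in Cancer_Low and 326 to 753 in Cancer_High. Of the 11 tested, 10 rose in Cancer_Low against Control_Low and 10 fell in each High against Low comparison, and 4 MFAP4 IDs and lgals9l1 were at 0 in every group. The 6 neutrophil markers summed to 221 to 319 CPM in Control_Low, 519 to 1173 in PreC_Low, 30.7 to 45.2 in PreC_High, 1054 to 5183 in Cancer_Low and 56.7 to 245 in Cancer_High, with none at 0. Of 10 Müller glia markers, 9 fell in Cancer_Low against Control_Low and 9 in PreC_High against PreC_Low. The 7 epithelium markers summed to 32034 to 43255 CPM in Control_Low, 7789 to 17749 in PreC_Low, 602 to 850.1 in PreC_High, 1851 to 4927 in Cancer_Low and 166 to 979.5 in Cancer_High, and krt91 was at 0 in PreC_Low, PreC_High and Cancer_High. Of 6 tested, 5 fell in Cancer_Low against Control_Low and 6 in PreC_High against PreC_Low. The 10 neuron markers summed to 400.4 to 669 CPM in Control_Low, 428 to 679 in PreC_Low, 221 to 316 in PreC_High, 38.2 to 200.1 in Cancer_Low and 178 to 309.8 in Cancer_High. The 8 myelin markers summed to 6016 to 6599 CPM in PreC_High and 992 to 1649 in Cancer_High, against 130 to 484 in the 3 Low groups. This list includes SOX10, so part of its High sums was fixed by the sort. SOX10 alone read 1329 to 1597 CPM in PreC_High, 748 to 1389 in Cancer_High and 418 in Cancer_Low 4. The members together read 5148 to 5907 CPM in Control_Low, 4802 to 7233 in PreC_Low, 2077 to 2289 in PreC_High, 9833 to 17667 in Cancer_Low and 5854 to 9716 in Cancer_High. The part of these cell types in the members' levels was not tested.

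**Figure D3:**
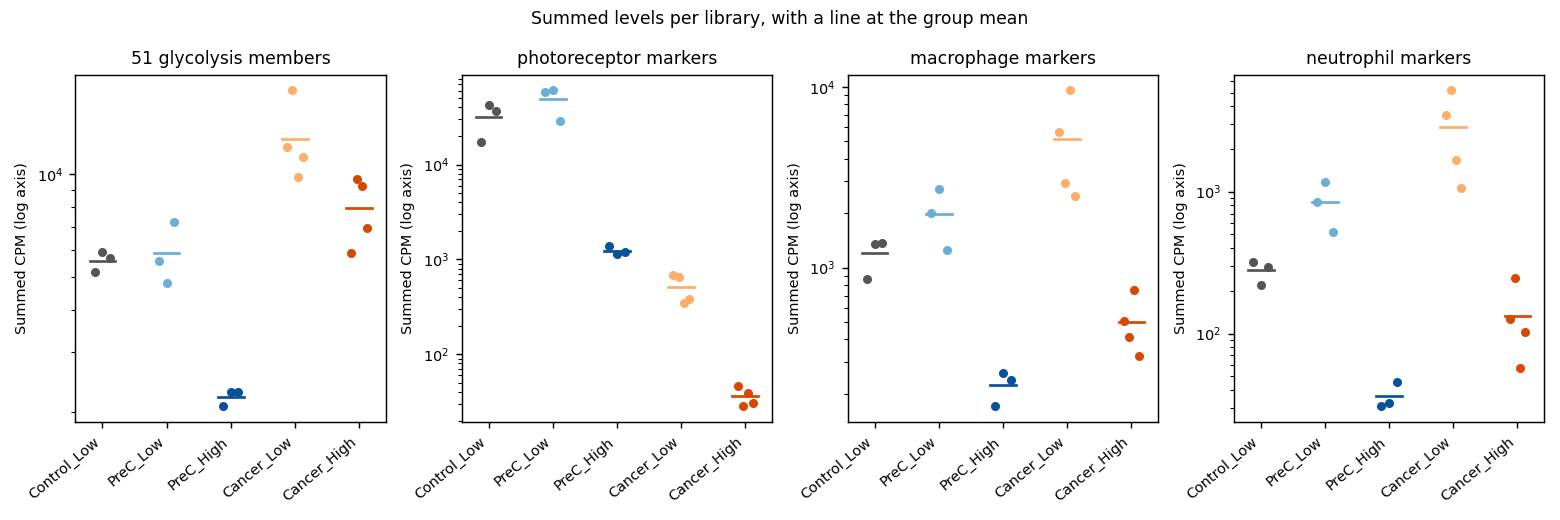
Summed CPM per library on a log axis for the 51 members and for photoreceptor, macrophage and neutrophil markers, 1 panel each, with a line at the group mean. The members' sum is highest in Cancer_Low, at 9833 to 17667 CPM, and lowest in PreC_High, at 2077 to 2289 CPM, while photoreceptor markers are lowest in both Cancer groups and macrophage markers highest in Cancer_Low.

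Glucose enters cells through carriers of the SLC2A (GLUT) family, and SLC2A1 is the broadly expressed one. Its 2 IDs parted. SLC2A1-01437 read 62.6, 122 and 111 CPM in Control_Low, 130.4, 98.6 and 97.6 in PreC_Low and 2.03, 1.57, 3.34 and 0.277 in Cancer_Low. SLC2A1-01437 in the High fraction read 3.08, 6.11 and 7.31 CPM in PreC_High and 0.0139, 0, 0.0588 and 0.0151 in Cancer_High. Every Cancer_Low library lay below every Control_Low and PreC_Low library, and Cancer_High was at or near the floor. SLC2A1 (ENSDARG00000001437) fell by 5.77 ± 0.66 log2 units (adjusted p = 1.01e-05) in Cancer_Low against Control_Low and fell by 5.91 ± 0.66 log2 units (adjusted p = 1.3e-05) against PreC_Low. It fell by 4.31 ± 0.70 log2 units (adjusted p = 0.000244) in PreC_High against PreC_Low, fell by 6.28 ± 0.78 log2 units (adjusted p = 2.04e-05) in Cancer_High against Cancer_Low, and fell by 7.88 ± 0.81 log2 units (adjusted p = 8.56e-06) in Cancer_High against PreC_High. Cancer_High 3, with 0.0588 CPM, carried most of the few reads, and without it the last 2 values became -7.34 and -8.94. In Cancer_High 2, 0 counts allow up to 0.0416 CPM.

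SLC2A1-07412 read 65.9, 59.04 and 74.01 CPM in Control_Low, 41.3, 40.2 and 39.9 in PreC_Low and 52.4, 63.1, 45.6 and 87.3 in Cancer_Low. SLC2A1-07412 in the High fraction read 5.62, 4.79 and 6.41 CPM in PreC_High and 23.6, 74.2, 21.4 and 37.7 in Cancer_High. PreC_High lay below all other groups, PreC_Low lay below the other Low groups, and Cancer_High overlapped all 3 Low groups. SLC2A1 (ENSDARG00000007412) fell by 2.85 ± 0.41 log2 units (adjusted p = 0.000105) in PreC_High against PreC_Low and rose by 2.81 ± 0.40 log2 units (adjusted p = 0.000203) in Cancer_High against PreC_High. It was not called in Cancer_Low against Control_Low (log2 fold change -0.09 ± 0.36, adjusted p = 0.867). The neuronal-type carrier slc2a3a was called in no comparison. slc2a3a read 7.397, 8.78 and 11.7 CPM in Control_Low, 7.39, 7.38 and 4.87 in PreC_Low and 2.55, 7.85, 1.37 and 3.12 in Cancer_Low. slc2a3a in the High fraction read 3.09, 5.72 and 7.76 CPM in PreC_High and 1.35, 8.17, 0.735 and 0.784 in Cancer_High. Cancer_High 2 read far above the other Cancer_High libraries. The groups overlapped in every pair compared but PreC_Low and Control_Low, which nearly touched.

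Hexokinases trap glucose inside the cell by adding a phosphate, HK1 in most tissues and HK2 in muscle, fat and many tumours. HK1 read 93.99, 107 and 106 CPM in Control_Low, 108, 108 and 129 in PreC_Low and 253, 457, 171 and 289.6 in Cancer_Low. HK1 in the High fraction read 80.7, 106 and 124 CPM in PreC_High and 157, 384, 297 and 276 in Cancer_High. All Cancer libraries of both fractions lay above all PreC and Control libraries. HK1 rose by 1.51 ± 0.34 log2 units (adjusted p = 0.0025) in Cancer_Low against Control_Low, rose by 1.34 ± 0.33 log2 units (adjusted p = 0.0091) against PreC_Low and rose by 1.42 ± 0.33 log2 units (adjusted p = 0.011) in Cancer_High against PreC_High. The last call ended without PreC_High 1 (highest adjusted p 0.0637). HK2 read 178, 87.5 and 89.8 CPM in Control_Low, 83.1, 74.6 and 114 in PreC_Low and 323, 364, 179 and 114 in Cancer_Low. HK2 in the High fraction read 40.4, 30.99 and 40.5 CPM in PreC_High and 66.1, 112, 78.1 and 61.1 in Cancer_High. HK2 in Cancer_Low ranged from Cancer_Low 4, inside the Control_Low range, to 364 CPM, so these groups overlapped. HK2 rose by 1.05 ± 0.38 log2 units (adjusted p = 0.045) against Control_Low, a call that ended without Control_Low 2 or 3 or Cancer_Low 1 or 2 (highest adjusted p 0.174), and rose by 1.44 ± 0.39 log2 units (adjusted p = 0.0159) against PreC_Low, which ended without PreC_Low 1 or 2 (highest adjusted p 0.0748). HK2 fell by 1.28 ± 0.41 log2 units (adjusted p = 0.0242) in PreC_High, which ended without PreC_High 1, 2 or 3 or PreC_Low 3 (highest adjusted p 0.082), and fell by 1.63 ± 0.36 log2 units (adjusted p = 0.00284) in Cancer_High against Cancer_Low.

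Glucose-6-phosphate isomerase turns glucose-6-phosphate into fructose-6-phosphate. GPI-12987 read 176, 158 and 155 CPM in Control_Low, 153, 142 and 264 in PreC_Low and 559.9, 800.2, 439.8 and 902 in Cancer_Low. GPI-12987 in the High fraction read 32.04, 40.4 and 40.5 CPM in PreC_High and 238, 526, 412 and 499 in Cancer_High. Cancer_Low was the highest group and PreC_High the lowest, and in both fractions every Cancer library exceeded every PreC library. GPI (ENSDARG00000012987) rose by 2.05 ± 0.33 log2 units (adjusted p = 0.000225) in Cancer_Low against Control_Low, rose by 1.86 ± 0.33 log2 units (adjusted p = 0.000864) against PreC_Low and rose by 3.48 ± 0.36 log2 units (adjusted p = 8.56e-06) in Cancer_High against PreC_High, and it fell by 2.31 ± 0.35 log2 units (adjusted p = 0.000147) in PreC_High against PreC_Low. The other copy, GPI (ENSDARG00000103826), stayed between 1.47 and 7.20 CPM in all 17 libraries and was called in no comparison. GPI-03826 read 2.93, 3.02 and 2.03 CPM in Control_Low, 2.13, 3.73 and 2.85 in PreC_Low and 2.23, 2.55, 2.24 and 4.08 in Cancer_Low. GPI-03826 in the High fraction read 2.65, 4.898 and 1.47 CPM in PreC_High and 3.004, 3.65, 3.48 and 7.202 in Cancer_High.

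Phosphofructokinase commits the sugar to glycolysis, and its subunits come in liver (PFKL), muscle (PFKM) and platelet (PFKP) types. PFKP-12801 read 188, 203 and 216 CPM in Control_Low, 231, 247 and 169 in PreC_Low and 112, 144, 81.1 and 60.7 in Cancer_Low. PFKP-12801 in the High fraction read 10.6, 5.19 and 9.79 CPM in PreC_High and 19.7, 26.3, 10.7 and 16.5 in Cancer_High. PFKP (ENSDARG00000012801) read at most 26.3 CPM in the High fraction and at least 60.7 CPM in the Low fraction, so no High group overlapped a Low group. It fell by 4.66 ± 0.42 log2 units (adjusted p = 5.23e-06) in PreC_High against PreC_Low and fell by 2.44 ± 0.33 log2 units (adjusted p = 4.9e-05) in Cancer_High against Cancer_Low. In Cancer_Low it fell by 1.02 ± 0.34 log2 units (adjusted p = 0.0279) against Control_Low, a call that ended without Control_Low 1, 2 or 3 or Cancer_Low 3 or 4 (highest adjusted p 0.0773), and fell by 1.12 ± 0.34 log2 units (adjusted p = 0.0282) against PreC_Low, which ended without PreC_Low 1 or 2 or Cancer_Low 3 or 4 (highest adjusted p 0.103). PFKP-28000 read 69.2, 80.8 and 73.8 CPM in Control_Low, 73.1, 94.7 and 164 in PreC_Low and 474, 791, 361 and 500.1 in Cancer_Low. PFKP-28000 in the High fraction read 34.01, 43.7 and 48.2 CPM in PreC_High and 144, 437, 127 and 315 in Cancer_High. The copy PFKP (ENSDARG00000028000) went the other way in the Low fraction, with all Cancer_Low libraries above all Control_Low and PreC_Low ones. It rose by 2.83 ± 0.44 log2 units (adjusted p = 0.000167) against Control_Low, rose by 2.27 ± 0.43 log2 units (adjusted p = 0.00148) against PreC_Low and rose by 2.61 ± 0.44 log2 units (adjusted p = 0.000891) in Cancer_High against PreC_High. It fell by 1.40 ± 0.44 log2 units (adjusted p = 0.0224) in PreC_High, which ended without PreC_High 1 or 2 or PreC_Low 3 (highest adjusted p 0.0937), and fell by 1.06 ± 0.37 log2 units (adjusted p = 0.0436) in Cancer_High against Cancer_Low, which ended without Cancer_High 1 or 3 or Cancer_Low 1 or 2 (highest adjusted p 0.156).

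PFKL-99755 read 143, 151 and 159 CPM in Control_Low, 96.4, 97.6 and 78.8 in PreC_Low and 17.3, 21.1, 17.9 and 41.8 in Cancer_Low. PFKL-99755 in the High fraction read 23.1, 19.2 and 36.5 CPM in PreC_High and 27.9, 39.7, 34.3 and 87.6 in Cancer_High. Control_Low was the highest group of PFKL (ENSDARG00000099755), PreC_Low came next, and all other libraries but Cancer_High 4 read below both. It fell by 2.62 ± 0.40 log2 units (adjusted p = 0.000119) in Cancer_Low against Control_Low, fell by 1.89 ± 0.39 log2 units (adjusted p = 0.00258) against PreC_Low and fell by 1.79 ± 0.43 log2 units (adjusted p = 0.00454) in PreC_High against PreC_Low. The second liver-type copy, PFKL (ENSDARG00000060504), lay between 8.79 and 29.6 CPM throughout and was called nowhere. PFKL-60504 read 20.8, 25.5 and 24.1 CPM in Control_Low, 19.1, 23.8 and 18.6 in PreC_Low and 17.9, 22.03, 14.3 and 12.6 in Cancer_Low. PFKL-60504 in the High fraction read 11.5, 20.9 and 12.7 CPM in PreC_High and 29.6, 20.01, 8.79 and 13.9 in Cancer_High.

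PFKM-60797 read 21.4, 90.1 and 89.2 CPM in Control_Low, 16.6, 29.6 and 19.9 in PreC_Low and 0.825, 0.864, 0.963 and 0.796 in Cancer_Low. PFKM-60797 in the High fraction read 0, 0.7101 and 1.42 CPM in PreC_High and 1.42, 0.541, 2.101 and 0 in Cancer_High. PFKM (ENSDARG00000060797) was the muscle-type copy of the Low fraction without cancer, and every Cancer and PreC_High library read at most 2.10 CPM. It fell by 6.28 ± 1.22 log2 units (adjusted p = 0.000936) in Cancer_Low against Control_Low, fell by 4.67 ± 1.14 log2 units (adjusted p = 0.00832) against PreC_Low and fell by 4.96 ± 1.31 log2 units (adjusted p = 0.00871) in PreC_High against PreC_Low. The last value ran from -5.96 without PreC_High 3 to -4.37 without PreC_High 1. PFKM-14179 read 0, 0 and 0 CPM in Control_Low, 0, 0 and 0.768 in PreC_Low and 0.213, 0.142, 0.166 and 1.86 in Cancer_Low. PFKM-14179 in the High fraction read 0, 0.313 and 0 CPM in PreC_High and 1.68, 0.305, 3.28 and 1.296 in Cancer_High. PFKM (ENSDARG00000014179) was listed at 0 in all Control_Low libraries and its Cancer_Low mean was 0.594 ± 0.842 CPM (SD, n = 4). With Control_Low set at the floor of 3 counts per library, that mean was 10.9-fold higher, or 3.17-fold higher without Cancer_Low 4. These folds cover counting error only and are no firm minimum, since a 0 can stand beside replicates with many counts. For example, ALDOA-34470 had 0, 149 and 74 counts in Control_Low. The difference of PFKM-14179 between Cancer_Low and Control_Low was called (adjusted p = 0.0399), a call that ended without Control_Low 1, 2 or 3 or Cancer_Low 4 (highest adjusted p 0.103). The fitted log2 value depends on the prior count and was 6.71 without Cancer_Low 4.

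The PFKFB enzymes make or remove fructose-2,6-bisphosphate, the strongest activator of phosphofructokinase. PFKFB3 is the form with the most kinase activity. PFKFB3 read 91.7, 121 and 141 CPM in Control_Low, 117, 101 and 73.97 in PreC_Low and 221, 335, 164 and 237 in Cancer_Low. PFKFB3 in the High fraction read 119, 139 and 91.2 CPM in PreC_High and 245, 328, 166 and 264 in Cancer_High. Cancer libraries of both fractions lay above PreC_Low and Control_Low and above PreC_High. PFKFB3 rose by 1.02 ± 0.30 log2 units (adjusted p = 0.0158) in Cancer_Low against Control_Low, which ended without Control_Low 1 or Cancer_Low 2 (highest adjusted p 0.0781), and rose by 1.30 ± 0.30 log2 units (adjusted p = 0.00637) against PreC_Low. It rose by 1.11 ± 0.30 log2 units (adjusted p = 0.0263) in Cancer_High against PreC_High, which ended without PreC_High 1 or 3 or Cancer_High 2 (highest adjusted p 0.116). PFKFB2 read 27.6, 30.4 and 24.9 CPM in Control_Low, 41.6, 40.2 and 25.3 in PreC_Low and 2.25, 3.34, 2.19 and 12.7 in Cancer_Low. PFKFB2 in the High fraction read 2.34, 3.04 and 6.73 CPM in PreC_High and 3.42, 13.2, 1.205 and 23.4 in Cancer_High. In PFKFB2, a heart-type form in mammals, Control_Low and PreC_Low lay above all other libraries, and Cancer_Low 4 stood above its group. PFKFB2 fell by 2.43 ± 0.78 log2 units (adjusted p = 0.0243) in Cancer_Low against Control_Low, which ended without Control_Low 1 or 2 or Cancer_Low 1, 2 or 3 (highest adjusted p 0.0652) and read -3.41 without Cancer_Low 4. It fell by 2.80 ± 0.79 log2 units (adjusted p = 0.019) against PreC_Low, which ended without PreC_Low 1 or 2 or Cancer_Low 1, 2 or 3 (highest adjusted p 0.0566) and read -3.78 without Cancer_Low 4, and it fell by 3.14 ± 0.89 log2 units (adjusted p = 0.0132) in PreC_High, which ended without PreC_High 1 (highest adjusted p 0.0554).

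The liver-type form pfkfb1 read 8.13 to 13.5 CPM in Control_Low, 3.59 to 9.48 in PreC_Low, 0.45 to 0.779 in Cancer_Low, 0.71 to 1.8 in PreC_High and 0.472 to 4.05 in Cancer_High. All Cancer_Low libraries lay below all Control_Low and PreC_Low ones. It fell by 4.18 ± 0.73 log2 units (adjusted p = 0.000384) in Cancer_Low against Control_Low and fell by 3.35 ± 0.70 log2 units (adjusted p = 0.00305) against PreC_Low. It fell by 2.15 ± 0.75 log2 units (adjusted p = 0.0373) in PreC_High against PreC_Low, a call that ended without PreC_High 1, 2 or 3 or PreC_Low 1 or 3 (highest adjusted p 0.129) and had an adjusted p of 0.103 with tissue as a block. Neither pfkfb4a nor PFKFB4 was called anywhere. pfkfb4a read 19.5, 20.02 and 25.9 CPM in Control_Low, 22.2, 10.4 and 18.2 in PreC_Low and 35.1, 52.8, 27.4 and 23.04 in Cancer_Low. pfkfb4a in the High fraction read 19.5, 6.87 and 7.08 CPM in PreC_High and 12.4, 15.5, 15.2 and 33.6 in Cancer_High. PFKFB4 read 92.8, 101 and 103 CPM in Control_Low, 77.6, 105 and 38.9 in PreC_Low and 55.9, 127, 69.1 and 51.8 in Cancer_Low. PFKFB4 in the High fraction read 55.8, 32.1 and 26.5 CPM in PreC_High and 29.6, 53.3, 17.7 and 189.8 in Cancer_High. Their groups overlapped in every pair compared but Cancer_Low and PreC_Low for pfkfb4a, and Cancer_High 4 was the highest Cancer_High library of both.

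Aldolase splits the sugar into a pair of triose phosphates, with ALDOA the muscle and general form and ALDOC the brain form. ALDOA-11665 read 361, 324 and 303 CPM in Control_Low, 238, 202 and 520.4 in PreC_Low and 1087, 1563, 1246 and 1341 in Cancer_Low. ALDOA-11665 in the High fraction read 198, 193 and 223 CPM in PreC_High and 758, 1549, 2542 and 1024 in Cancer_High. All Cancer libraries of ALDOA (ENSDARG00000011665) lay above all others. It rose by 1.99 ± 0.39 log2 units (adjusted p = 0.000967) in Cancer_Low against Control_Low, rose by 2.03 ± 0.39 log2 units (adjusted p = 0.00151) against PreC_Low and rose by 2.84 ± 0.40 log2 units (adjusted p = 0.000198) in Cancer_High against PreC_High. In neither High against Low comparison was it called. ALDOA-34470 read 0, 2.14 and 1.02 CPM in Control_Low, 2.75, 1.92 and 1.79 in PreC_Low and 11.3, 8.72, 9.801 and 6.38 in Cancer_Low. ALDOA-34470 in the High fraction read 0.4196, 0 and 0 CPM in PreC_High and 0.528, 0.902, 0.2204 and 0.362 in Cancer_High. ALDOA (ENSDARG00000034470) read at most 11.3 CPM, and all Cancer_Low libraries lay above all others. It fell by 4.17 ± 1.29 log2 units (adjusted p = 0.0231) in Cancer_High against Cancer_Low, which ended without Cancer_High 1, 3 or 4 (highest adjusted p 0.0603).

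ALDOC-19702 read 312, 541 and 459 CPM in Control_Low, 518, 399 and 430.3 in PreC_Low and 799.99, 1467, 562 and 628 in Cancer_Low. ALDOC-19702 in the High fraction read 48.05, 42.95 and 73.01 CPM in PreC_High and 224, 387, 404 and 289.8 in Cancer_High. ALDOC (ENSDARG00000019702) was lowest in PreC_High, far below the range of every other group, and highest in Cancer_Low. It fell by 3.04 ± 0.39 log2 units (adjusted p = 3.76e-05) in PreC_High against PreC_Low, fell by 1.41 ± 0.31 log2 units (adjusted p = 0.00338) in Cancer_High against Cancer_Low and rose by 2.58 ± 0.37 log2 units (adjusted p = 0.000194) in Cancer_High against PreC_High. It rose by 0.98 ± 0.34 log2 units (adjusted p = 0.0362) in Cancer_Low against Control_Low, which ended without Control_Low 1 or 3 or Cancer_Low 1 or 2 (highest adjusted p 0.146). The second brain-type copy, ALDOC (ENSDARG00000057661), had its highest group mean in Control_Low and was called nowhere. ALDOC-57661 read 3.13, 4.498 and 1.13 CPM in Control_Low, 0.5903, 1.09 and 1.01 in PreC_Low and 0.6002, 0.793, 0.133 and 0.0482 in Cancer_Low. ALDOC-57661 in the High fraction read 1.46, 0.313 and 0.0139 CPM in PreC_High and 0.3199, 0.0832, 0.397 and 0.226 in Cancer_High.

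Triosephosphate isomerase turns one triose phosphate into the other, so that both pass down the chain. TPI1-25012 read 12.8, 29.7 and 18.6 CPM in Control_Low, 15.5, 20.05 and 7.51 in PreC_Low and 0.763, 1.08, 0.797 and 0.4099 in Cancer_Low. TPI1-25012 in the High fraction read 3.07, 1.01 and 2.68 CPM in PreC_High and 1.08, 0.0694, 2.37 and 0.121 in Cancer_High. TPI1 (ENSDARG00000025012) was a low transcript of Control_Low and PreC_Low, and all Cancer_Low and PreC_High libraries lay below them. It fell by 4.74 ± 0.91 log2 units (adjusted p = 0.000835) in Cancer_Low against Control_Low and fell by 4.23 ± 0.89 log2 units (adjusted p = 0.00306) against PreC_Low. In PreC_High it fell by 2.67 ± 0.93 log2 units (adjusted p = 0.0379), a call that ended without PreC_High 1, 2 or 3 or PreC_Low 1 or 2 (highest adjusted p 0.118) and had an adjusted p of 0.081 with tissue as a block. TPI1-40988 read 105, 98.8 and 112 CPM in Control_Low, 81.7, 65.9 and 219.7 in PreC_Low and 330.4, 490.01, 317 and 146 in Cancer_Low. TPI1-40988 in the High fraction read 51.7, 36.4 and 63.3 CPM in PreC_High and 38.3, 218, 465 and 109 in Cancer_High. TPI1 (ENSDARG00000040988) was called in no comparison, although every Cancer_Low library lay above every Control_Low library (log2 fold change 1.60 ± 0.64, adjusted p = 0.0624). PreC_Low 3 lay above the other PreC_Low libraries.

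Glyceraldehyde-3-phosphate dehydrogenase carries out the step that makes NADH. GAPDHS read 606, 791 and 765 CPM in Control_Low, 795, 655 and 1075 in PreC_Low and 2262, 3349.6, 1878 and 2239 in Cancer_Low. GAPDHS in the High fraction read 376, 308 and 375 CPM in PreC_High and 1181, 1771, 1618 and 1082 in Cancer_High. GAPDHS, named after the sperm form of mammals, read at least 308 CPM in every library, and in both fractions all Cancer libraries lay above all PreC libraries. GAPDHS rose by 1.75 ± 0.27 log2 units (adjusted p = 0.000135) in Cancer_Low against Control_Low, rose by 1.53 ± 0.27 log2 units (adjusted p = 0.000729) against PreC_Low and rose by 2.002 ± 0.27 log2 units (adjusted p = 0.000122) in Cancer_High against PreC_High. It fell by 1.25 ± 0.28 log2 units (adjusted p = 0.00264) in PreC_High against PreC_Low and fell by 0.78 ± 0.24 log2 units (adjusted p = 0.0206) in Cancer_High against Cancer_Low, which ended without Cancer_High 1 or 4 or Cancer_Low 2 (highest adjusted p 0.0916). GAPDH read 2.95, 1.61 and 1.48 CPM in Control_Low, 3.36, 1.32 and 3.79 in PreC_Low and 3.96, 7.21, 1.44 and 1.54 in Cancer_Low. GAPDH in the High fraction read 0.552, 0.0481 and 1.38 CPM in PreC_High and 0.0834, 0.583, 0.2204 and 0.286 in Cancer_High. GAPDH, often taken as a constant reference gene, read at most 7.21 CPM and was below all Cancer_Low libraries in Cancer_High. It fell by 3.58 ± 0.92 log2 units (adjusted p = 0.00809) there, or -2.97 without Cancer_Low 2.

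Phosphoglycerate mutase moves the phosphate along the 3-carbon acid. pgam1a read 55.8, 63.3 and 54.5 CPM in Control_Low, 55.5, 45.6 and 120.4 in PreC_Low and 235, 308, 329.5 and 425 in Cancer_Low. pgam1a in the High fraction read 52.2, 47.8 and 59.6 CPM in PreC_High and 109, 528, 348 and 269 in Cancer_High. All Cancer_Low libraries of pgam1a lay above all PreC and Control libraries. PreC_Low 3 lay above its group and above Cancer_High 1. The gene rose by 2.49 ± 0.45 log2 units (adjusted p = 0.000527) in Cancer_Low against Control_Low, rose by 2.14 ± 0.44 log2 units (adjusted p = 0.0027) against PreC_Low and rose by 2.56 ± 0.45 log2 units (adjusted p = 0.00131) in Cancer_High against PreC_High. pgam1b read 75.1, 111 and 112 CPM in Control_Low, 121, 105 and 72.97 in PreC_Low and 88.1, 121, 111 and 75.1 in Cancer_Low. pgam1b in the High fraction read 67.2, 66.4 and 47.99 CPM in PreC_High and 60.4, 78.6, 63.4 and 105 in Cancer_High. The Low groups of pgam1b overlapped, PreC_High lay below PreC_Low, and no comparison was called. Muscle-type PGAM2 read at most 0.2 CPM and was not tested.

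**Figure D4:**
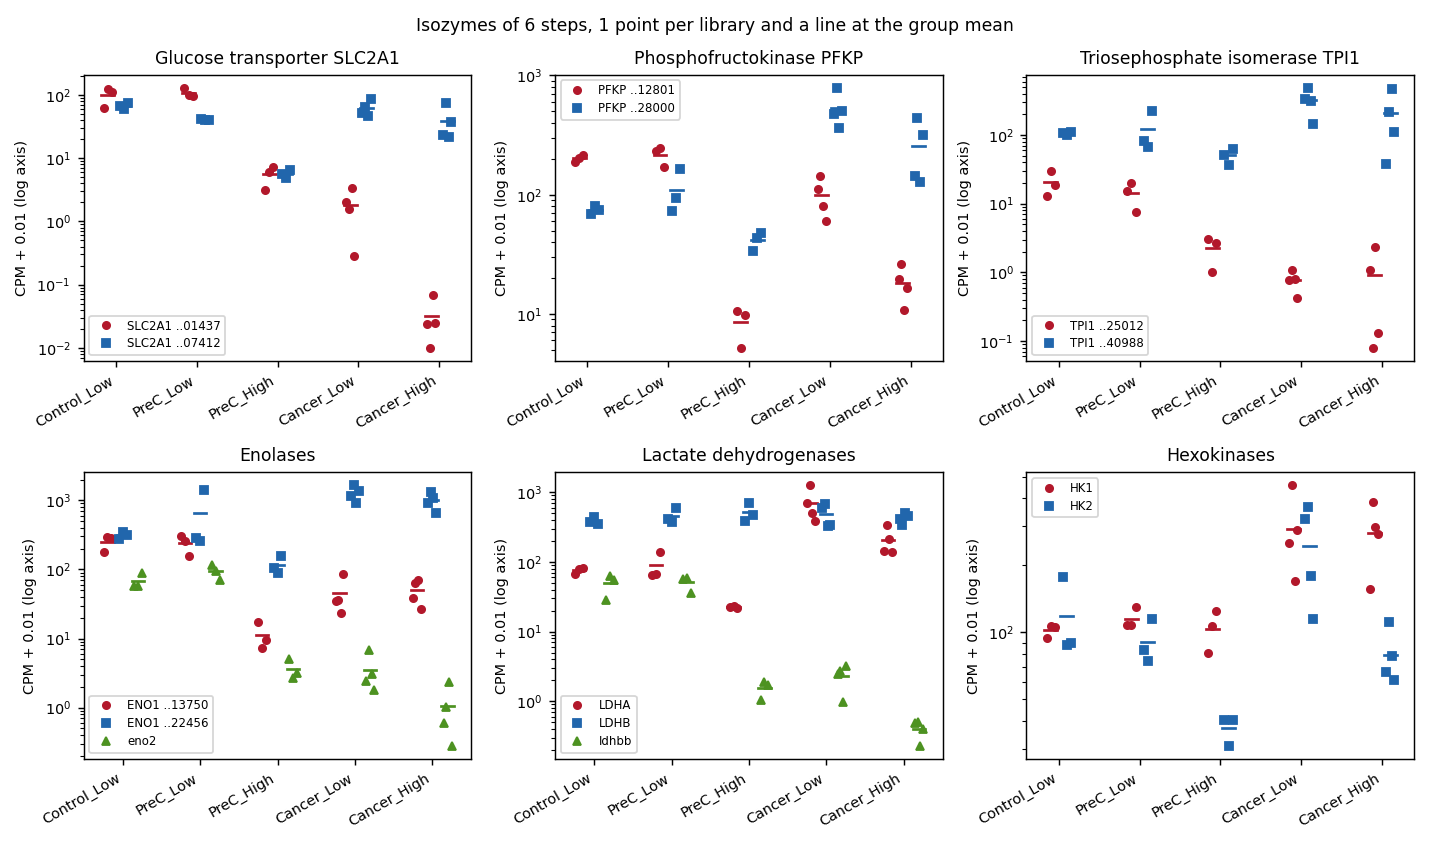
CPM plus 0.01 on a log axis for the isozymes of 6 steps, 1 panel per step, with 1 point per library in the 5 groups and a line at each group mean. From Control_Low and PreC_Low to Cancer_Low, LDHA goes up to between 379 and 1248 CPM while ldhbb goes down to between 0.952 and 3.20 CPM. ENO1-22456 parts from ENO1-13750 and eno2 in the same way from Control_Low to Cancer_Low. Its rise from PreC_Low was not called, and PreC_Low 3 reads 1426 CPM, within the Cancer_Low range.

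Enolase makes phosphoenolpyruvate, ENO1 in most tissues and ENO2 in neurons. ENO1-13750 read 179, 293 and 287 CPM in Control_Low, 308, 261 and 157 in PreC_Low and 34.4, 36.5, 23.6 and 86.3 in Cancer_Low. ENO1-13750 in the High fraction read 17.3, 7.22 and 9.397 CPM in PreC_High and 38.5, 63.98, 70.3 and 26.7 in Cancer_High. The Cancer groups of ENO1 (ENSDARG00000013750) overlapped each other, above PreC_High and below Control_Low and PreC_Low. It fell by 2.48 ± 0.46 log2 units (adjusted p = 0.000591) in Cancer_Low against Control_Low and fell by 2.42 ± 0.45 log2 units (adjusted p = 0.00132) against PreC_Low. It fell by 4.42 ± 0.55 log2 units (adjusted p = 3.27e-05) in PreC_High against PreC_Low and rose by 2.14 ± 0.48 log2 units (adjusted p = 0.00814) in Cancer_High against PreC_High, the only member that fell in the Low fraction and rose in the High fraction between these stages. eno2 read 57.8, 57.8 and 88.2 CPM in Control_Low, 117, 95.3 and 70.98 in PreC_Low and 2.39, 6.84, 3.01 and 1.78 in Cancer_Low. eno2 in the High fraction read 5.12, 2.65 and 3.14 CPM in PreC_High and 0.598, 0.999, 2.32 and 0.271 in Cancer_High. All Cancer libraries of eno2 lay below all Low libraries without cancer. The gene fell by 4.28 ± 0.60 log2 units (adjusted p = 6.14e-05) in Cancer_Low against Control_Low, fell by 4.75 ± 0.61 log2 units (adjusted p = 4.53e-05) against PreC_Low and fell by 4.70 ± 0.69 log2 units (adjusted p = 0.000109) in PreC_High against PreC_Low. It fell by 1.74 ± 0.53 log2 units (adjusted p = 0.0218) in Cancer_High against Cancer_Low, which ended without Cancer_High 1 or Cancer_Low 2 (highest adjusted p 0.107) and read -2.49 without Cancer_High 3.

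ENO1-22456 read 275, 351 and 316 CPM in Control_Low, 281, 258 and 1426 in PreC_Low and 1169, 1646, 916 and 1349 in Cancer_Low. ENO1-22456 in the High fraction read 105, 88.3 and 157 CPM in PreC_High and 912, 1330.3, 1088 and 653 in Cancer_High. PreC_Low 3 read 1426 CPM of ENO1 (ENSDARG00000022456), about the level of Cancer_Low, where the other PreC_Low libraries read 258 and 281 CPM. The gene rose by 2.02 ± 0.50 log2 units (adjusted p = 0.00538) in Cancer_Low against Control_Low and rose by 3.09 ± 0.53 log2 units (adjusted p = 0.000955) in Cancer_High against PreC_High. It fell by 2.49 ± 0.53 log2 units (adjusted p = 0.00204) in PreC_High against PreC_Low, and by less without PreC_Low 3, where the log2 fold change was -1.21. Against PreC_Low, Cancer_Low was not called (log2 fold change 0.96 ± 0.48, adjusted p = 0.178). Muscle-type ENO3 had 0 counts in every library.

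Pyruvate kinase makes pyruvate and ATP, PKM in muscle, brain and growing cells and PKLR in liver and red cells. PKM-99730 read 652, 547 and 552 CPM in Control_Low, 501, 391 and 500.4 in PreC_Low and 1680.05, 2274, 1176 and 1361 in Cancer_Low. PKM-99730 in the High fraction read 81.2, 103 and 118 CPM in PreC_High and 530.2, 671, 265 and 702 in Cancer_High. Cancer_Low lay above all other libraries of PKM (ENSDARG00000099730), and PreC_High below all others. It rose by 1.48 ± 0.32 log2 units (adjusted p = 0.00195) in Cancer_Low against Control_Low and rose by 1.81 ± 0.32 log2 units (adjusted p = 0.000871) against PreC_Low. It fell by 2.20 ± 0.34 log2 units (adjusted p = 0.000163) in PreC_High against PreC_Low, fell by 1.58 ± 0.29 log2 units (adjusted p = 0.00067) in Cancer_High against Cancer_Low and rose by 2.43 ± 0.33 log2 units (adjusted p = 0.000124) in Cancer_High against PreC_High. The copy PKM (ENSDARG00000099860) read at most 2.56 CPM and was called nowhere. PKM-99860 read 1.202, 0.833 and 1.21 CPM in Control_Low, 2.56, 0.804 and 1.84 in PreC_Low and 0.313, 0.113, 0.233 and 0.109 in Cancer_Low. PKM-99860 in the High fraction read 0, 0.253 and 0.834 CPM in PreC_High and 0.0695, 0.0555, 0.132 and 0.121 in Cancer_High. Liver-type PKLR read 0.0735 to 4.55 CPM over all libraries. It fell by 2.57 ± 0.77 log2 units (adjusted p = 0.0266) in Cancer_Low against PreC_Low, which ended without PreC_Low 1 or Cancer_Low 1 or 2 (highest adjusted p 0.101).

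Lactate dehydrogenase interconverts pyruvate and lactate. LDHA read 67.2, 78.2 and 81.7 CPM in Control_Low, 64.3, 66.5 and 139.9 in PreC_Low and 696, 1248, 499.6 and 379 in Cancer_Low. LDHA in the High fraction read 22.2, 23.5 and 21.4 CPM in PreC_High and 144, 335, 216 and 136 in Cancer_High. All Cancer_Low libraries lay above all others, and all Cancer_High libraries lay above all PreC_High ones. LDHA rose by 3.22 ± 0.45 log2 units (adjusted p = 6.44e-05) in Cancer_Low against Control_Low and rose by 2.97 ± 0.45 log2 units (adjusted p = 0.000208) against PreC_Low. It rose by 3.22 ± 0.45 log2 units (adjusted p = 0.000171) in Cancer_High against PreC_High, fell by 2.01 ± 0.44 log2 units (adjusted p = 0.00263) in PreC_High against PreC_Low and fell by 1.76 ± 0.38 log2 units (adjusted p = 0.00259) in Cancer_High against Cancer_Low. ldhbb read 28.7, 63.1 and 55.4 CPM in Control_Low, 57.3, 58.2 and 35.97 in PreC_Low and 2.44, 2.705, 0.952 and 3.195 in Cancer_Low. ldhbb in the High fraction read 1.02, 1.88 and 1.696 CPM in PreC_High and 0.473, 0.499, 0.2204 and 0.392 in Cancer_High. The B-type paralogue ldhbb went the other way from LDHA in the comparisons of Cancer with PreC or Control. No Cancer library of it overlapped the Low libraries without cancer. Like LDHA, ldhbb was lower in the High fraction than in the Low one at both stages. It fell by 4.40 ± 0.44 log2 units (adjusted p = 3.4e-06) in Cancer_Low against Control_Low, fell by 4.44 ± 0.45 log2 units (adjusted p = 4.58e-06) against PreC_Low, fell by 5.04 ± 0.52 log2 units (adjusted p = 7.81e-06) in PreC_High against PreC_Low, fell by 2.54 ± 0.41 log2 units (adjusted p = 0.00024) in Cancer_High against Cancer_Low and fell by 1.94 ± 0.42 log2 units (adjusted p = 0.0067) in Cancer_High against PreC_High. The last call ended with only the compared groups in the fit (adjusted p = 0.117).

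LDHB read 375, 439 and 348 CPM in Control_Low, 417, 378 and 586 in PreC_Low and 585, 680.1, 323 and 342 in Cancer_Low. LDHB in the High fraction read 379.9, 687 and 464 CPM in PreC_High and 409, 342, 505 and 453 in Cancer_High. The other B-type gene, LDHB, overlapped in every pair of groups compared and was called in no comparison. In Cancer_Low against Control_Low its values were log2 fold change 0.32 ± 0.30, adjusted p = 0.436.

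Lactate leaves or enters cells through monocarboxylate carriers, SLC16A1 (MCT1) in both directions and SLC16A3 (MCT4) mainly outward. SLC16A1-16963 read 1.24, 1.22 and 0.604 CPM in Control_Low, 25.1, 10.97 and 15.6 in PreC_Low and 2.401, 1.98, 2.02 and 0.8199 in Cancer_Low. SLC16A1-16963 in the High fraction read 2.54, 2.06 and 0.473 CPM in PreC_High and 0.487, 0.153, 0.411 and 0.0452 in Cancer_High. SLC16A1 (ENSDARG00000016963) was the one member called between PreC_Low and Control_Low, and PreC_Low stood above every other group. It rose by 4.07 ± 0.84 log2 units (adjusted p = 0.0327) in PreC_Low against Control_Low, a call that ended without PreC_Low 1 or 3 or Control_Low 1, 2 or 3 (highest adjusted p 0.134). T cell markers were higher in the same libraries. Their sum over 9 genes was 406 to 3803 CPM in PreC_Low and 81.3 to 102 CPM in Control_Low. Neutrophil markers were higher there too and epithelium markers lower, as given above. The part of any of these markers in the result was not tested. SLC16A1-16963 read at most 2.401 CPM in Cancer_Low, where the T cell sum was 233 to 1192 CPM. It fell by 3.25 ± 0.72 log2 units (adjusted p = 0.00426) in Cancer_Low against PreC_Low, fell by 3.35 ± 0.81 log2 units (adjusted p = 0.00492) in PreC_High against PreC_Low and fell by 2.71 ± 0.69 log2 units (adjusted p = 0.00794) in Cancer_High against Cancer_Low. In Cancer_High against PreC_High it fell by 2.62 ± 0.72 log2 units (adjusted p = 0.0269), a call that ended without PreC_High 1 or 2 or Cancer_High 2 (highest adjusted p 0.104). SLC16A1-68572 read 29.3, 28.2 and 22.4 CPM in Control_Low, 26.4, 18.7 and 37.2 in PreC_Low and 35.99, 62.6, 30.1 and 33.8 in Cancer_Low. SLC16A1-68572 in the High fraction read 4.66, 15.04 and 13.1 CPM in PreC_High and 8.83, 23.4, 13.3 and 18.7 in Cancer_High. SLC16A1 (ENSDARG00000068572) was lower in the High fraction at both stages. It fell by 1.33 ± 0.45 log2 units (adjusted p = 0.0331) in PreC_High, which ended without PreC_High 1 or 3 or PreC_Low 1 or 3 (highest adjusted p 0.125), and fell by 1.34 ± 0.39 log2 units (adjusted p = 0.0166) in Cancer_High, which ended without Cancer_High 1 or Cancer_Low 2 (highest adjusted p 0.0692).

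SLC16A3-45051 read 27.2, 17.4 and 28.95 CPM in Control_Low, 30.5, 23.2 and 55.005 in PreC_Low and 50.7, 166, 49.05 and 26.1 in Cancer_Low. SLC16A3-45051 in the High fraction read 2.78, 1.03 and 4.64 CPM in PreC_High and 19.9, 49.7, 8.86 and 8.45 in Cancer_High. SLC16A3 (ENSDARG00000045051) had one high library in each Cancer group, replicate 2 of both. It fell by 3.68 ± 0.80 log2 units (adjusted p = 0.00233) in PreC_High against PreC_Low. It fell by 1.75 ± 0.64 log2 units (adjusted p = 0.049) in Cancer_High against Cancer_Low, which ended without Cancer_High 1, 3 or 4 or Cancer_Low 1, 2 or 3 (highest adjusted p 0.278) and ran from -2.55 without Cancer_High 2 to -0.95 without Cancer_Low 2. It rose by 2.95 ± 0.75 log2 units (adjusted p = 0.0177) in Cancer_High against PreC_High, which ended without PreC_High 1 or 2 or Cancer_High 2 (highest adjusted p 0.0715) and read 2.14 without Cancer_High 2. SLC16A3-28583 read 3.72, 6.68 and 4.06 CPM in Control_Low, 15.03, 15.5 and 7.54 in PreC_Low and 6.43, 10.2, 5.16 and 2.15 in Cancer_Low. SLC16A3-28583 in the High fraction read 0, 0.6499 and 0 CPM in PreC_High and 0.236, 0.569, 1.895 and 0.196 in Cancer_High. SLC16A3 (ENSDARG00000028583) read at most 1.9 CPM in the High fraction. It fell by 5.86 ± 1.46 log2 units (adjusted p = 0.00603) in PreC_High against PreC_Low, a fitted value that rests on few reads and ran from -12.89 without PreC_High 2 to -5.27 without PreC_High 1. It fell by 3.04 ± 1.102 log2 units (adjusted p = 0.0481) in Cancer_High against Cancer_Low, which ended without Cancer_High 1, 2 or 4 or Cancer_Low 1, 2 or 3 (highest adjusted p 0.116) and read -4.15 without Cancer_High 3.

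The pyruvate dehydrogenase kinases switch off pyruvate dehydrogenase. PDK2-59054 read 206, 215 and 205 CPM in Control_Low, 220.2, 148 and 105 in PreC_Low and 175, 153, 240.3 and 107 in Cancer_Low. PDK2-59054 in the High fraction read 29.6, 11.8 and 13.6 CPM in PreC_High and 15.3, 22.6, 14.6 and 17.6 in Cancer_High. No library of either High group of PDK2 (ENSDARG00000059054) reached the Low range, and the 3 Low groups overlapped. It fell by 3.10 ± 0.40 log2 units (adjusted p = 4.3e-05) in PreC_High against PreC_Low and fell by 3.27 ± 0.35 log2 units (adjusted p = 5.64e-06) in Cancer_High against Cancer_Low. PDK3-99791 read 28.1, 28.4 and 28.9 CPM in Control_Low, 29.9, 22.8 and 16.1 in PreC_Low and 4.86, 5.96, 3.38 and 3.99 in Cancer_Low. PDK3-99791 in the High fraction read 3.31, 4.08 and 3.23 CPM in PreC_High and 2.21, 1.83, 1.81 and 2.98 in Cancer_High. Control_Low and PreC_Low lay above all other libraries of PDK3 (ENSDARG00000099791). It fell by 2.65 ± 0.32 log2 units (adjusted p = 1.63e-05) in Cancer_Low against Control_Low, fell by 2.33 ± 0.32 log2 units (adjusted p = 7.96e-05) against PreC_Low and fell by 2.69 ± 0.36 log2 units (adjusted p = 5.03e-05) in PreC_High against PreC_Low. It fell by 1.04 ± 0.29 log2 units (adjusted p = 0.0142) in Cancer_High against Cancer_Low, which ended without Cancer_Low 2 (highest adjusted p 0.053) and had an adjusted p of 0.0615 with tissue as a block. PDK2-20876 read 20.6, 42.7 and 22.5 CPM in Control_Low, 37.5, 25.2 and 21.9 in PreC_Low and 6.41, 7.902, 6.77 and 17.9 in Cancer_Low. PDK2-20876 in the High fraction read 16.7, 17.1 and 11.1 CPM in PreC_High and 7.77, 17.2, 6.92 and 12.6 in Cancer_High. Cancer_Low 4 stood above the rest of its group. PDK2 (ENSDARG00000020876) fell by 1.55 ± 0.43 log2 units (adjusted p = 0.0103) in Cancer_Low against Control_Low, which ended without Control_Low 2 (highest adjusted p 0.0788), and fell by 1.53 ± 0.43 log2 units (adjusted p = 0.0179) against PreC_Low, which ended without PreC_Low 1 or Cancer_Low 1 or 3 (highest adjusted p 0.0938). PDK1, at 3.43 to 14.8 CPM, and PDK3 (ENSDARG00000014527), at 1.97 to 12.5 CPM, were called nowhere.

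Hypoxia-inducible factor 1 alpha is the oxygen-sensitive switch of the chain, and EGLN3 is a prolyl hydroxylase that marks it for removal and is itself raised by it. EGLN3 read 2.24, 3.85 and 3.405 CPM in Control_Low, 6.78, 8.36 and 9.93 in PreC_Low and 24.6, 49.7, 34.4 and 50.6 in Cancer_Low. EGLN3 in the High fraction read 2.01, 1.64 and 0.167 CPM in PreC_High and 16.2, 42.6, 9.86 and 24.7 in Cancer_High. EGLN3 was above all PreC and Control libraries in all but 1 Cancer library, and that one lay between 2 PreC_Low values. It rose by 3.65 ± 0.68 log2 units (adjusted p = 0.000634) in Cancer_Low against Control_Low, rose by 2.25 ± 0.63 log2 units (adjusted p = 0.0183) against PreC_Low, which ended without PreC_Low 1 or 2 (highest adjusted p 0.0808), and rose by 4.19 ± 0.70 log2 units (adjusted p = 0.000784) in Cancer_High against PreC_High. It fell by 2.71 ± 0.67 log2 units (adjusted p = 0.0056) in PreC_High against PreC_Low. HIF1A read 359, 360.3 and 351 CPM in Control_Low, 321, 279 and 294 in PreC_Low and 589, 785, 471 and 292 in Cancer_Low. HIF1A in the High fraction read 149, 147 and 133 CPM in PreC_High and 353, 219, 369 and 174 in Cancer_High. HIF1A was lower in the High fraction, with overlap in Cancer. It fell by 1.06 ± 0.33 log2 units (adjusted p = 0.0222) in PreC_High, which ended without PreC_High 1, 2 or 3 or PreC_Low 1 (highest adjusted p 0.0701), and fell by 0.94 ± 0.28 log2 units (adjusted p = 0.0209) in Cancer_High, which ended without Cancer_High 2 or 4 or Cancer_Low 1 or 2 (highest adjusted p 0.0922). hif1aa read 16.9, 10.1 and 19.9 CPM in Control_Low, 9.62, 8.21 and 4.91 in PreC_Low and 2.69, 1.93, 2.44 and 0.543 in Cancer_Low. hif1aa in the High fraction read 0.497, 0.951 and 0 CPM in PreC_High and 1.25, 4.26, 2.12 and 0.527 in Cancer_High. The paralogue hif1aa was highest in Control_Low. It fell by 3.04 ± 0.93 log2 units (adjusted p = 0.0194) in Cancer_Low against Control_Low, which ended without Control_Low 3 (highest adjusted p 0.0573), and fell by 3.96 ± 1.09 log2 units (adjusted p = 0.0114) in PreC_High against PreC_Low, or -4.90 without PreC_High 2 and with an adjusted p of 0.0546 when only the compared groups were in the fit.

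Ratios between isozymes were compared as log2 of CPM plus 0.5, over 20 pairs. LDHA over ldhbb had a mean log2 ratio of 7.90 ± 0.87 in Cancer_Low (SD, n = 4) and of 0.69 ± 0.47 in Control_Low (SD, n = 3). LDHA over LDHB went from -2.35 ± 0.23 in Control_Low to 0.48 ± 0.34 in Cancer_Low. The ratio of ENO1-13750 to ENO1-22456 went from -0.34 ± 0.25 to -4.94 ± 0.67, that of TPI1-25012 to TPI1-40988 from -2.42 ± 0.65 to -7.89 ± 0.40, and that of SLC2A1-01437 to SLC2A1-07412 from 0.51 ± 0.56 to -4.93 ± 1.37. In the High fraction, LDHA over LDHB went from -4.44 ± 0.39 in PreC_High to -1.12 ± 0.76 in Cancer_High, and the SLC2A1 ratio from -0.09 ± 0.60 to -6.07 ± 0.86. The two-sided exact permutation test can reach no p below 0.1 with 3 against 3 libraries, 0.0571 with 3 against 4 and 0.0286 with 4 against 4. Over the 120 tests the smallest adjusted p was 0.129. With these bounds no ratio could reach an adjusted p under 0.05, so the test cannot decide whether any ratio differed. The pairs with PGAM2 and ENO3 reflect only the other gene, since these were at or near 0. The same holds for the SLC2A1 ratio in Cancer_High, where SLC2A1-01437 read 0 to 0.0588 CPM, far below the 0.5 added. In Cancer_Low, TPI1-25012 read 0.41 to 1.08 CPM, SLC2A1-01437 0.277 to 3.34 CPM and ldhbb 0.952 to 3.20 CPM. The ratios with these genes there depend in part on the 0.5 added.

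Whether the High against Low difference itself changed between the stages was tested as an interaction, with the signed fold change of High against Low at the PreC stage subtracted from that at the Cancer stage. In edgeR this gave 6 members in one direction and 0 in the other, where 0 were also found at an unadjusted p under 0.05 and by DESeq2. That is 12.2% against 3.40% of all IDs (2.36% in that direction), with a median of 0.67 log2 units against 0.17. SOX10 itself was higher in High than in Low by 6.37 ± 0.93 log2 units in PreC and by 2.90 ± 0.69 in Cancer. Its interaction of -3.465 ± 1.01 log2 units was not called in edgeR (adjusted p = 0.0686). The part of this smaller SOX10 gap in the members' interactions was not tested. In all 6 members called, the High fraction read lower than the Low one in PreC. In Cancer that fall was smaller for PFKP-12801, ldhbb and SLC2A1-07412, and no longer called for SLC2A1-07412. PFKL-99755 and pfkfb1 had the higher mean in the High fraction in Cancer, without a call. PFKL-99755 read 27.9 to 87.6 CPM in Cancer_High and 17.3 to 41.8 in Cancer_Low, and pfkfb1 0.472 to 4.05 and 0.45 to 0.779. Of the 6, ENO1-13750 rose by 4.56 ± 0.67 log2 units (adjusted p = 0.00172) and PFKL-99755 rose by 2.74 ± 0.56 log2 units (adjusted p = 0.0124) on this measure. Both held without any 1 library and with tissue as a block. For ENO1-13750 the High fraction read lower than the Low one in PreC (-4.42 log2 units) and about equal in Cancer (0.14 log2 units). On the same measure PFKP-12801 rose by 2.22 ± 0.49 log2 units (adjusted p = 0.019), SLC2A1-07412 rose by 2.19 ± 0.52 log2 units (adjusted p = 0.0279), ldhbb rose by 2.50 ± 0.60 log2 units (adjusted p = 0.0299) and pfkfb1 rose by 3.79 ± 0.98 log2 units (adjusted p = 0.0436). The call of PFKP-12801 ended without PreC_Low 2 (highest adjusted p 0.0522), that of SLC2A1-07412 ended without PreC_High 1, 2 or 3, PreC_Low 1 or 2 or Cancer_Low 1 or 3 (highest adjusted p 0.0627), that of ldhbb ended without PreC_High 1 or 3, PreC_Low 1 or 2, Cancer_High 1 or Cancer_Low 1 (highest adjusted p 0.078), and that of pfkfb1 ended without PreC_High 1, 2 or 3, PreC_Low 1, 2 or 3, Cancer_High 1 or 3 or Cancer_Low 1, 2 or 3 (highest adjusted p 0.0876), where the value was 2.98 without Cancer_High 1. With tissue as a block these 4 had adjusted p values of 0.0572, 0.0659, 0.0514 and 0.208. LDHA, HK1 and pgam1a were not called as interactions, with values of 0.25, 0.08 and 0.42 log2 units.

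**Figure D5:**
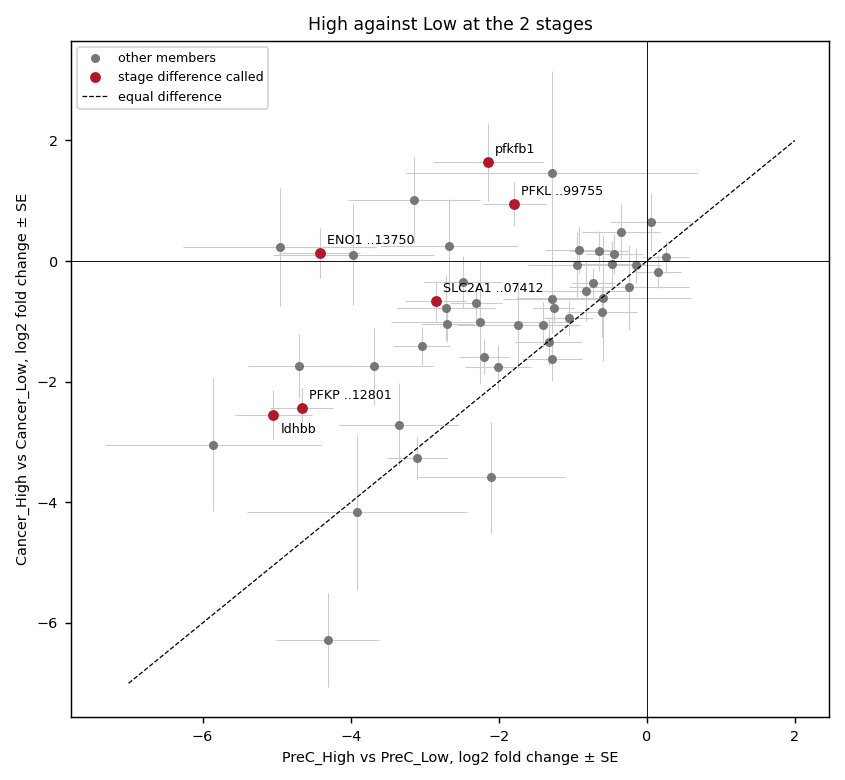
Log2 fold change of High against Low with its standard error in PreC (x axis) and in Cancer (y axis), 1 point per tested member, with the 6 interaction calls marked. These 6 lie above the diagonal, and among them ENO1-13750 lies farthest from it, at -4.42 in PreC and 0.14 in Cancer. Members not called lie on both sides of the line.

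Genes beside the chain were counted from lists of neighbouring pathways. Of all IDs, 17.2% rose and 15.5% fell in Cancer_Low against Control_Low, and 4.91% rose and 5.24% fell in Cancer_High against PreC_High. In High against Low, 9.28% rose and 22.0% fell in PreC, and 10.5% rose and 17.9% fell in Cancer. The lists are short, and whether any of them departs from these shares was not tested. Of 13 other sugar transporters tested, 5 rose and 0 fell in Cancer_Low against Control_Low (1 was lower at an unadjusted p under 0.05 in edgeR). The neuronal and white-cell type carrier slc2a3b read 683 ± 455 CPM against 61.8 ± 16.4 CPM there (SD) and rose by 3.46 ± 0.57 log2 units (adjusted p = 0.000267), and SLC2A6 read 181 ± 135 CPM against 7.603 ± 2.57 CPM and rose by 4.58 ± 0.75 log2 units (adjusted p = 0.000245). slc2a15a, whose Control_Low libraries all lay below the floor, read 13.1 ± 18.3 CPM in Cancer_Low and was called higher (adjusted p = 0.000127). Its fitted value of 10.91 log2 units became 9.21 without Cancer_Low 4 and 12.96 without Control_Low 1. In High against Low, 3 of the 13 rose and 2 fell in PreC, and 2 rose and 2 fell in Cancer. slc2a15a was among the higher ones at both stages, with means of 26.5 CPM in PreC_High and 73.8 in Cancer_High against 0.0407 in PreC_Low and 13.1 in Cancer_Low. SLC2A8 rose by 1.68 ± 0.49 log2 units (adjusted p = 0.0177) in Cancer, a call that ended without Cancer_High 4 or Cancer_Low 1, 2 or 3 (highest adjusted p 0.0595) and read 2.36 without Cancer_Low 4. By contrast slc2a3b fell by 2.84 ± 0.57 log2 units (adjusted p = 0.00143) in PreC and fell by 2.49 ± 0.49 log2 units (adjusted p = 0.00128) in Cancer, and SLC2A6 fell by 4.69 ± 0.78 log2 units (adjusted p = 0.000307) and fell by 4.52 ± 0.66 log2 units (adjusted p = 9.38e-05). Of 6 other lactate and pyruvate carriers tested, edgeR called 0 in Cancer_Low against Control_Low, with 0 at an unadjusted p under 0.05, and SLC16A6 fell by 2.24 ± 0.71 log2 units (adjusted p = 0.025) in PreC_High, a call that ended without PreC_High 1 or 2 or PreC_Low 1 or 2 (highest adjusted p 0.0698), read -3.11 without PreC_High 3 and had an adjusted p of 0.0633 with only the compared groups in the fit.

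Among pentose phosphate genes, PGD rose and TKT fell in Cancer_Low against Control_Low. TKT, the transketolase, read 48.4 ± 35.8 CPM against 3696 ± 785 CPM and fell by 6.26 ± 0.54 log2 units (adjusted p = 8.63e-07), or -6.87 without Cancer_Low 2. PGD, a dehydrogenase of that pathway, rose by 2.20 ± 0.54 log2 units (adjusted p = 0.00526), or 1.59 without Cancer_Low 2. Of 13 glycogen genes tested, 6 rose and 3 fell. GYG1 (ENSDARG00000059391), the glycogenin that primes glycogen, read 23.05 ± 7.02 CPM against 601 ± 63.9 CPM and fell by 4.71 ± 0.36 log2 units (adjusted p = 4.19e-07), the phosphorylase PYGL fell by 4.63 ± 0.52 log2 units (adjusted p = 9.2e-06) and pgm1 rose by 1.89 ± 0.37 log2 units (adjusted p = 0.00101). Of 8 genes of the pyruvate dehydrogenase complex and its regulators tested, 0 rose, with 0 higher at an unadjusted p under 0.05 in edgeR, and 2 fell, among them pdha1b, a subunit of the enzyme itself, which fell by 5.10 ± 0.64 log2 units (adjusted p = 2.48e-05).

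Of 21 other hypoxia response genes tested, 8 rose and 2 fell in Cancer_Low against Control_Low. VEGFA (ENSDARG00000034700), the vessel growth factor, rose by 2.71 ± 0.51 log2 units (adjusted p = 0.000708), the collagen hydroxylase P4HA1 rose by 4.67 ± 0.93 log2 units (adjusted p = 0.00111), or 3.89 without Cancer_Low 4, and the mitophagy gene BNIP3 fell by 3.09 ± 0.47 log2 units (adjusted p = 0.000132). In Cancer_High against PreC_High, 7 of the 21 rose and 2 fell. VEGFA (ENSDARG00000103542) rose there by 3.14 log2 units (adjusted p = 0.000337), or 2.55 without Cancer_High 2. BNIP3 was lower, with a log2 fold change of -3.12 (adjusted p = 0.000349). P4HA1 rose by 5.17 ± 0.95 log2 units (adjusted p = 0.00187), or 6.22 without PreC_High 2. Of 9 regulators of the factor tested, 2 rose and 3 fell in Cancer_Low against Control_Low, where 17.2% of all IDs rose and 15.5% fell. Both EPAS1 IDs, which encode the sister factor HIF2 alpha, were among the lower ones, at 9.67 ± 7.38 CPM against 137 ± 9.51 CPM for ENSDARG00000008697 and 5.34 ± 3.86 CPM against 114 ± 33.1 CPM for ENSDARG00000057671. They fell by 3.82 ± 0.54 log2 units (adjusted p = 7.11e-05) and fell by 4.42 ± 0.72 log2 units (adjusted p = 0.000238), and read -4.48 and -5.03 without Cancer_Low 1. In High against Low, 8 of the 21 hypoxia genes fell and 1 rose in PreC, and 7 fell and 0 rose in Cancer (1 was higher at an unadjusted p under 0.05 in edgeR).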

How the data were processed

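RNA of 17 sorted fractions in 5 groups was analysed. Per the labels' protocols, a miRneasy kit gave the RNA, a Bioanalyzer checked it, and libraries came from a NEBNext Ultra Directional kit with paired-end reads. Tools named in the submitters' processing notes are STAR, HTSeq, FastQC and DESeq2, with the build danRer10. Strand setting, annotation release and the treatment of reads that map to several places: not given in the sources used here. Reads could therefore be split between, or lost to, paralogues of similar sequence. How alike the IDs that share a symbol are was not examined. The deposited values are whole-number counts per Ensembl gene, not normalized by the authors. Part of the genotype and the results of some genes are not reported here.

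Symbols came from a table of gene IDs and names (26237 of 31701 IDs had a symbol), and the members and gene lists were chosen with earlier results of these data known. The rule for members that share a symbol put both IDs of GPI, PKM, SLC16A1, SLC16A3, PDK2 and PDK3 among them. Isozyme pairs of a shared symbol are the lower over the higher ID, other pairs are sums over IDs. Counts were filtered with filterByExpr (at least 10 counts, 15 in all), scaled by TMM and fitted over all 5 groups with edgeR 4.0.16 (glmQLFit, glmQLFTest) in R 4.3.3, checked on simulated counts. Called members are named by smallest adjusted p, up to 10 in each direction, and up to 3 members per role whose mean log2 CPM reached 2, with the isozyme pairs that parted, have their values given. Of the neighbouring lists up to 3 called genes are named. Members outside that rule are given by their range. Ratios used exact two-sided permutation tests. DESeq2 1.42.0, RLE scaling, no filter, fits of the compared groups only, blocks and libraries left out were alternatives. Depth was 58711787 to 87244522 counts per library.

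Tissue codes tie each High library to a Low one of the same eye tissue. Their deviations from the group means correlated at 0.306, 0.312, 0.331 and 0.426 in Cancer and at 0.0229, -0.00862 and 0.075 in PreC.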

Additional observations from a re-analysis of the deposited data

Results flagged for a closer look

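In 9 of 98 groups of 4 libraries 1 library lay far from the rest by Dixon's test. The test flags about 1 in 20 groups where values are independent and normally distributed. Here CPM were tested untransformed and the groups share the same Cancer libraries, so that rate is no benchmark. Cancer_Low 4, which also read 418 CPM of SOX10, was the high one in 4 of the 9. It read 41.8 CPM of PFKL (ENSDARG00000099755), where the others of its group read 17.3 to 21.1, 12.7 CPM of PFKFB2 (others 2.19 to 3.34), 17.9 CPM of PDK2 (ENSDARG00000020876) (others 6.41 to 7.90) and 1.86 CPM of PFKM (ENSDARG00000014179) (others 0.142 to 0.213). Cancer_Low 2 read 12.5 CPM of PDK3 (ENSDARG00000014527) (others 4.11 to 5.40). Cancer_High 4 read 33.6 CPM of pfkfb4a (others 12.4 to 15.5) and 7.20 CPM of GPI (ENSDARG00000103826) (others 3.00 to 3.65). Cancer_High 2 read 8.17 CPM of slc2a3a (others 0.735 to 1.35), and Cancer_High 3 read 0.0735 CPM of PKLR (others 0.316 to 0.362).

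For 6 members the signed High less Low difference was higher in Cancer than in PreC by the test of that difference itself, the High fraction being lower than the Low one in PreC in each of them. The gaps were 4.56 log2 units for ENO1 (ENSDARG00000013750), 3.79 for pfkfb1, 2.74 for PFKL (ENSDARG00000099755), 2.50 for ldhbb, 2.22 for PFKP (ENSDARG00000012801) and 2.19 for SLC2A1 (ENSDARG00000007412).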

How the results depend on the processing

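No called member changed direction under any alternative tried. The interaction depended most on the setting. Its 6 members became 14 with DESeq2, 2 with only the compared groups in the fit and 2 with tissue as a replicate block (paired analysis), and 2 to 8 with 1 library left out. The member called between PreC_Low and Control_Low gave way to 0 without PreC_Low 3 and Cancer_Low 4 together, and 0 to 1 with 1 library left out. With 1 library left out, Cancer_High against Cancer_Low gave 11 (without Cancer_Low 2) to 21 members, Cancer_Low against Control_Low 22 to 28, Cancer_Low against PreC_Low 19 to 27, PreC_High against PreC_Low 23 to 27 and Cancer_High against PreC_High 15 to 20. With the replicate block, PreC_High against PreC_Low gave 27 members, of which 26 were called without it, and no other call than those named in the text ended. A block by replicate number between the stages, where the labels tie no samples, ended the call of PFKM-14179 (adjusted p 0.0846). Of the 124 calls, all held with DESeq2, 121 with RLE scaling, 120 without the filter and 105 with only the compared groups in the fit. RLE scaling ended HK2 and ALDOC-19702 in Cancer_Low against Control_Low and pfkfb1 in the interaction (adjusted p 0.0505 to 0.0606). No filter ended HK2 there and PFKP-28000 and both SLC16A3 IDs in Cancer_High against Cancer_Low (0.0525 to 0.0587). The fit of the compared groups ended HK2 and ALDOC-19702 in Cancer_Low against Control_Low, PDK2-20876 against PreC_Low, pfkfb1, SLC16A1-68572 and hif1aa in PreC_High against PreC_Low, PFKP-28000, eno2, SLC16A3-45051, PDK3-99791 and HIF1A in Cancer_High against Cancer_Low, PFKFB3, ldhbb, SLC16A1-16963 and SLC16A3-45051 in Cancer_High against PreC_High, and 4 interactions (0.0546 to 0.135). RLE scaling moved the median of all IDs by over 0.1 log2 units in PreC_Low against Control_Low, from 0.09 to -0.02, and in the interaction, from 0.17 to 0.04, and left 5 interaction members. The alternatives for genes of the neighbouring lists were added after the data were seen. Low members such as PFKM-14179 and PGAM2 are limited by depth, at a floor of 0.0331 to 0.0547 CPM. Libraries also differed in how many IDs had 3 to 20 counts. These were 632 to 2344 IDs in the PreC and Control libraries and 3361 to 4295 in the Cancer libraries. The part of this difference in the detection of low members was not tested.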
